A study of Prunus domestica x Prunus domestica subsp. insititia with 6 samples.

Results

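Leaf genes whose transcript level hardly differed between any of the libraries, flooded or control, are described here. The rule took genes with a mean of at least 50 counts-per-million (CPM, scaled by the TMM factors of edgeR) whose highest library was at most 1.2 times their lowest. The genes were thus chosen by their level and spread over all 6 libraries. There were 207 of them, out of 26873 gene models listed, 16917 with enough reads to be tested and 3607 with a mean of at least 50 CPM. All 207 had passed the filter on low counts, which the rule includes. Because the rule used every library of both groups, the small differences between the groups in these genes follow from the choice, and the values below describe them without testing them.

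RNA was sequenced from leaves of the plum cultivar Julior, a Prunus insititia x Prunus domestica hybrid raised from cuttings and called tolerant of flooding in the labels. The flooded group held 3 samples from plants kept for 48 hours with the water standing about 3 cm over the soil, and the control group held 3 samples from plants watered daily to field capacity. All plants were 10 months old, grew in a greenhouse in pots of orchard soil and were of this 1 cultivar, so no flood-sensitive plant is in the comparison. The series' design text speaks of duplicates, where the labels give 3 samples per group, and nothing says whether these came from separate plants, so the spread between them may be technical.

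Flooding fills the air spaces of the soil with water and starves roots of oxygen, and leaves are reached indirectly, through water supply, hormones and sugar transport. Against such a treatment, transcripts that keep their share of the leaf's messenger RNA serve as internal references, for instance in quantitative PCR, where the genes of basic cell upkeep (cytoskeleton, translation, protein turnover) are the usual candidates. A gene can have equal group means and still be a poor reference if it varies between plants of 1 group, so the spread within groups matters as much as the difference between them. The files name genes by ID and give no product, and no annotation was used here. Genes are therefore given by ID, without the ending that all IDs share, with no function, and whether the usual reference genes are among them was not examined. For the same reason leaf marker genes were not looked up.

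Reads in genes totalled 11070986 to 12578205 in the flooded libraries and 13342964 to 15864206 in the control libraries. A steady gene had at least 472 reads in every flooded library and at least 679 in every control library, so read counting alone gave these genes a coefficient of variation (CV) of 1.39% to 3.96%, with a median of 3.16%. Flooding replicate 2 had more reads outside gene models (5.63% of its listed reads) than the other libraries, where the share was 0.940% to 1.375%.

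By the rule's limit of 50 CPM, the steady genes were more abundant than most tested genes. All tested genes had a median of 16.6 CPM and an upper quartile of 42.5 CPM. The mean level of the steady genes ran from 50.02 to 403 CPM with a median of 77.8 CPM. The other 3400 genes with a mean of at least 50 CPM had a median of 94.2 CPM and reached 31210 CPM. The share of steady genes was 7.59% of the genes between 50 and 75 CPM (99 of 1304) and 8.52% of those between 75 and 100 CPM (56 of 657). It was 4.49% between 100 and 150 CPM (30 of 668), 3.87% between 150 and 200 CPM (12 of 310) and 2.17% between 200 and 400 CPM (9 of 414). Of the 254 genes at 400 CPM or more, 1 was steady. The median CV over the 6 libraries was 14.5% in all genes between 50 and 75 CPM and 23.6% in those at 400 CPM or more. Read counting alone gives median CVs of 3.67% and 1.04% at these levels, so the abundant genes varied more while counting added less.

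**Figure D1:**
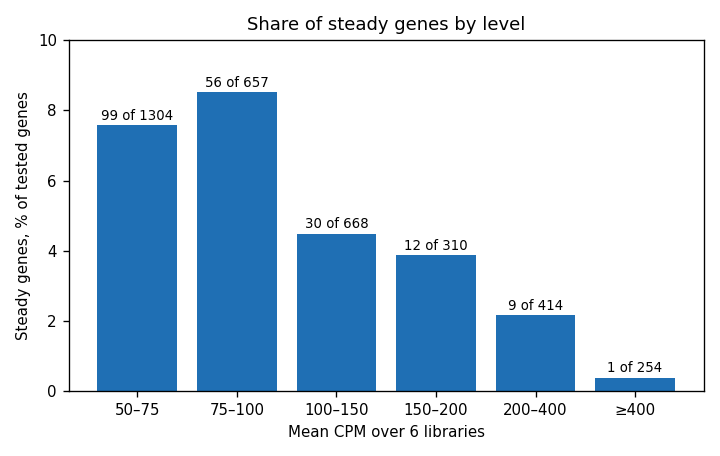
Steady genes as a percentage of all tested genes in each class of mean level (CPM over 6 libraries), with the number of steady genes and of all genes above each bar. The share is 8.52% between 75 and 100 CPM and 0.394% at 400 CPM or more, where 1 of 254 genes is steady.

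The gene with the smallest spread was Prupe.8G091100, with 56.6, 56.1 and 59.0 CPM in flooded replicates 1 to 3, against 58.5, 58.7 and 56.3 CPM in control replicates 1 to 3. Its highest library was 1.05 times its lowest, and its CV of 2.35% was below the 3.68% that counting alone gives at its depth of 578 to 954 reads. The libraries of the groups were interleaved, with flooding replicate 3 the highest and flooding replicate 2 the lowest. Its means were 57.2 ± 1.58 CPM in flooded leaves and 57.9 ± 1.34 CPM in control leaves (SD, n = 3 each). The fitted log2 fold change of flooding over control was -0.02, with a 95% interval from -0.27 to 0.24.

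Prupe.6G320300 was next, with 115 ± 1.31 CPM in flooded leaves and 117 ± 4.06 CPM in control leaves (SD, n = 3 each) and a ratio of highest to lowest library of 1.07. Its flooded libraries had 115, 112.5 and 113 CPM, and its control libraries 120, 118 and 112 CPM. Control replicate 3 was its lowest library and control replicate 1 its highest, so its whole range lay within the control group. Prupe.8G167300 had 71.8, 72.4 and 70.5 CPM in flooded libraries, against 71.7, 75.5 and 70.6 CPM in control libraries. Prupe.1G330300 had 60.5, 58.3 and 57.4 CPM in flooded libraries, against 57.9, 61.8 and 58.4 CPM in control libraries. In both genes control replicate 2 was the highest library and flooding replicate 3 the lowest, with ratios of 1.07 and 1.08. Prupe.4G023300 had 79.9, 81.3 and 75.9 CPM in flooded libraries, against 80.0, 81.9 and 80.9 CPM in control libraries. In it 5 libraries lay between 79.9 and 81.9 CPM, and flooding replicate 3 lay under them.

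At the abundant end, Prupe.5G101400 had 423, 430 and 408 CPM in flooded libraries, against 362, 396.5 and 396 CPM in control libraries. Every flooded library lay above every control library, although the means, 420 ± 11.4 CPM in flooded leaves and 385 ± 19.7 CPM in control leaves (SD, n = 3 each), differed by a log2 fold change of 0.13 (95% interval -0.23 to 0.49). Prupe.5G060200 had 390, 354 and 334 CPM in flooded libraries, against 400, 381 and 363 CPM in control libraries. Here the groups overlapped, with control replicate 1 the highest and flooding replicate 3 the lowest library. Prupe.2G175300 had 308, 332 and 356 CPM in flooded libraries, against 302.5, 317 and 312 CPM in control libraries. Its flooded libraries spread over 1.155 times and its control libraries over 1.05 times, so most of its range was inside the flooded group.

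Prupe.2G208200 averaged 308 ± 15.8 CPM in flooded leaves and 301 ± 16.9 CPM in control leaves (SD, n = 3 each). Prupe.8G129400 averaged 291.5 ± 15.3 CPM in flooded leaves and 283 ± 17.2 CPM in control leaves (SD, n = 3 each). In these abundant genes counting accounts for little of the spread. The CV of the 5 genes was 4.96% to 6.61%, where counting alone gives 1.39% to 1.65%. The most abundant of them, Prupe.5G101400, stood at position 253 by level, so 252 tested genes were more abundant than any steady gene.

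**Figure D2:**
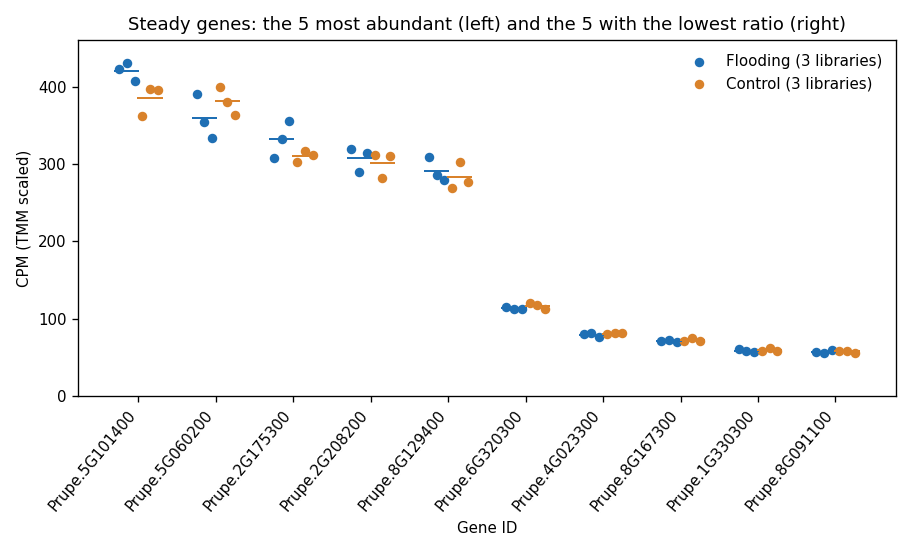
CPM of each library (points; flooding left and control right within each gene, replicates 1 to 3 in order) and group means (lines) for the 5 most abundant steady genes and the 5 with the lowest ratio of highest to lowest library. Groups overlap in these genes except in Prupe.5G101400, whose flooded libraries have 408 to 430 CPM and control libraries 362 to 396.5 CPM.

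Over all 207 genes, the CV between the 6 libraries was 2.35% to 7.93% with a median of 5.68%, against a median of 17.1% in the other genes with at least 50 CPM. The steady genes varied 1.76 times as much as counting alone would give (median of the ratio of CVs), and in 11 of them the CV lay below the counting value. In 63 it was more than 2 times the counting value. For those 11 genes the spread between libraries was thus no larger than counting alone gives. A chi-square of the counts per degree of freedom, near 1 where only counting acts, had a median of 3.15 in the steady genes. It was above 2 in 156 of the 207 and below 1 in 10. In most steady genes the spread was thus larger than counting gives. The genes were chosen for a small spread, and no p was taken for the spread of single genes.

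**Figure D3:**
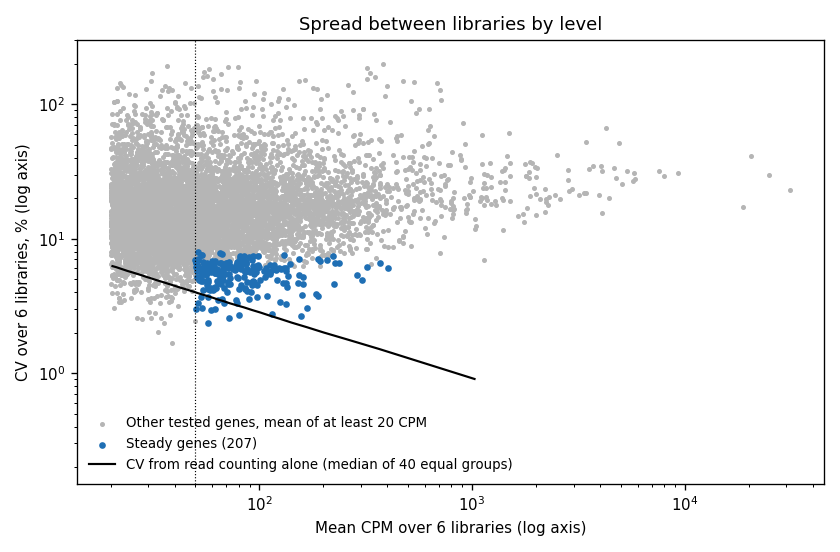
CV between the 6 libraries (%, log axis) against mean level (CPM, log axis) for every tested gene with a mean of at least 20 CPM, with the 207 steady genes in blue, the 50 CPM limit as a dotted line and the CV from read counting alone as a black line. The steady genes have a CV of 2.35% to 7.93% and lie near the counting line at 50 CPM and farther above it at higher levels.

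The ratio limit cut through a continuous distribution. Just inside it lay Prupe.1G360600 (58.1 CPM), Prupe.6G102100 (50.02 CPM) and Prupe.3G166900 (80.8 CPM), with ratios of 1.199 to 1.2. Just outside it lay Prupe.6G163400 (704 CPM), Prupe.7G189100 (65.3 CPM) and Prupe.8G178100 (192 CPM), with ratios of 1.2 to 1.201. Prupe.6G163400 was thus more abundant than any steady gene and missed the limit narrowly, with 760, 717.5 and 644 CPM in flooded libraries, against 633.5, 760.5 and 706 CPM in control libraries. At the limit on level, Prupe.6G102100, Prupe.2G302300 and Prupe.7G249200 had means of 50.02 to 50.2 CPM and were taken. Prupe.7G205800, Prupe.5G236400 and Prupe.6G234700 had means of 49.7 to 49.9 CPM and were not. Prupe.7G205800, with a ratio of 1.07, missed the limit on level although its libraries were close together.

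Within groups, the ratio of highest to lowest library had a median of 1.101 among the 3 flooded libraries and 1.103 among the 3 control libraries. In the other genes with at least 50 CPM these medians were 1.355 in flooded and 1.31 in control libraries. The highest and the lowest library of a steady gene lay in different groups in 136 genes, with the highest a flooded library in 55 and a control library in 81. Both lay in the flooded group in 38 genes and both in the control group in 33. Flooding replicate 2 was the lowest library in 48 of the 207 genes, the most of any library, and the highest in 22, the fewest. Control replicate 2 was the highest in 44 and control replicate 1 in 39. Flooding replicate 2 is the library with 5.63% of reads outside gene models, and the part of this in its low values was not tested. The shift was small. The median deviation of the steady genes from their own means in log2 units was -0.02 in flooding replicate 2 and between -0.0007 and 0.0064 in the other 5 libraries.

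Summed, the 207 genes came to 19360, 19016 and 19278 CPM in flooded libraries, against 19381, 19321 and 19236 CPM in control libraries. This sum averaged 19218 ± 180 CPM in flooded leaves and 19313 ± 72.8 CPM in control leaves (SD, n = 3 each), with the groups overlapping. As a plain share of the reads in tested genes, before TMM scaling, the sum was 2.01%, 1.77% and 1.83% in flooded libraries, against 2.145%, 1.775% and 2.05% in control libraries. These shares moved with the TMM factors, which ran from 0.932 to 1.04 in flooded and from 0.919 to 1.11 in control libraries. Steadiness here is therefore relative to the bulk of transcripts, which TMM scaling sets equal between libraries. With library totals in place of TMM factors, 123 genes met the rule and 33 of the 207 were among them (15.9% of the 207 and 26.8% of the 123), and the largest ratio of a steady gene was 1.44. With DESeq2's size factors 212 genes met it, and 191 of the 207 were among them. In leaf tissue as a whole, fewer cells of a type and less RNA per cell cannot be told apart, and a change in total RNA per leaf is outside these measurements.

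The flooded mean was above the control mean in 92 of the 207 genes and below it in 115. The fitted log2 fold change ran from -0.18 to 0.14 with a median of -0.01, and the largest difference corresponds to 1.135-fold. By the rule a group mean cannot differ by more than 1.2-fold. The median size of the change, without its sign, was 0.05 on the log2 scale, against 0.17 in the other genes with at least 50 CPM and 0.19 in all tested genes.

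All flooded libraries lay above all control libraries in 7 of the 207 genes, where this held for 6.76% of all tested genes, and below them in 9 genes, where it held for 6.14%. Even the steady genes thus include some whose groups were separate, although no pair of group means differed by more than 1.135-fold. The largest positive change was that of Prupe.7G241100, with 58.3, 53.2 and 58.4 CPM in flooded libraries, against 49.7, 55.3 and 49.1 CPM in control libraries. Its groups overlapped, since flooding replicate 2 lay below control replicate 2, and the log2 fold change was 0.14 (95% interval -0.14 to 0.42).

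Prupe.4G108800 had 133.5, 133 and 132 CPM in flooded libraries, against 122, 126 and 114 CPM in control libraries. Its groups did not overlap, and its flooded libraries were within 1.01 times of each other. The largest negative change was that of Prupe.1G535500, with 59.6, 64.0 and 59.5 CPM in flooded libraries, against 66.2, 71.2 and 70.5 CPM in control libraries. Its means were 61.1 ± 2.58 CPM in flooded leaves and 69.3 ± 2.72 CPM in control leaves (SD, n = 3 each), and the log2 fold change was -0.18 (95% interval -0.45 to 0.09). Prupe.4G170100 had 59.3, 57.7 and 53.3 CPM in flooded libraries, against 63.2, 63.8 and 62.9 CPM in control libraries. In both of these genes the flooded libraries all lay under the lowest control library, and the gap was within the 1.2-fold that the rule allows.

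In edgeR's quasi-likelihood test 0 of the 207 genes had an adjusted p under 0.05, where 0.0296% of all tested genes (5 of 16917) did. At an unadjusted p under 0.05 the count was 0 of 207, where 8.02% of all tested genes (1356) passed. DESeq2 called 0 of the 207 at an adjusted p under 0.05, where it called 1.44% of the genes it gave an adjusted p (238 of 16580), and limma-voom called 0, where it called 0.0236% of all tested genes (4 of 16917). At an unadjusted p under 0.05 both found 0 of the 207, where DESeq2 passed 8.6% and limma-voom 7.16% of all genes with a p. Nothing is read from these counts, because the rule chose the genes on the same libraries, and a p above a threshold does not show that a gene did not respond.

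How large a flooding difference these data would still allow was read from the 95% interval of the log2 fold change in the quasi-likelihood fit over all tested genes, in which a gene's own spread is pooled with that of genes of like abundance (7.09 degrees of freedom). The standard error had a median of 0.12 in the steady genes, against 0.19 in the other genes with at least 50 CPM and 0.23 in all tested genes. The interval reached 0.29 (median) on either side of the estimate. It lay within 1.5-fold in either direction for 207 of the 207 genes, for 1429 of the other 3400 genes with at least 50 CPM (42.0%), and for 5498 of all 16917 tested genes (32.5%). Between a fall of 20% and a rise of 25% it lay for 71 of the 207 (34.3%), for 4 of the other 3400 and for 257 of all tested genes.

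The largest fold still inside the interval was 1.201 to 1.404 among the steady genes, with a median of 1.27. Prupe.8G091100, with the smallest ratio, had a bound of 1.21-fold, and Prupe.5G101400, the most abundant, had the widest bound of 1.404-fold. The bound was 1.256-fold (median) in the 99 steady genes under 75 CPM, 1.26-fold in the 56 between 75 and 100 CPM and 1.29-fold in the 52 above 100 CPM. More reads thus came with no tighter bound in these genes. Intervals from each gene's own 6 values, without pooling, had a half-width of 0.18 on the log2 scale (median) and lay between a fall of 20% and a rise of 25% for 201 of the 207. Those intervals are too narrow, since the genes were chosen for a small spread, and the pooled ones carry part of the same choice.

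**Figure D4:**
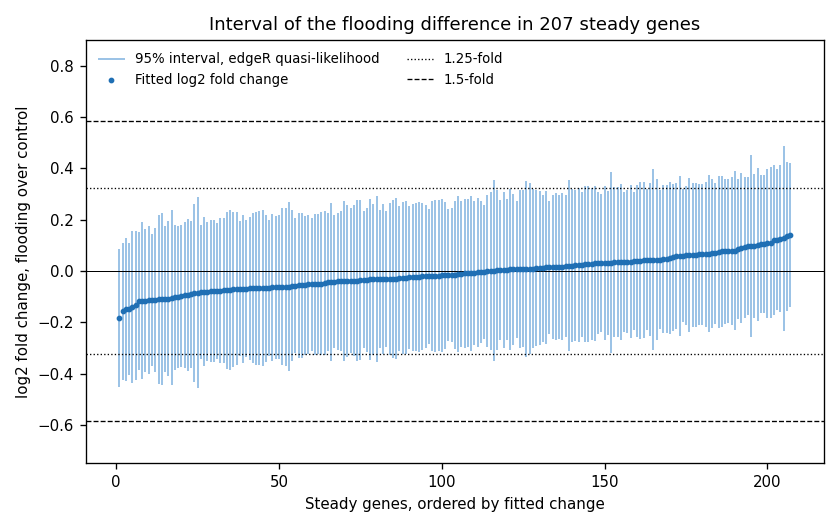
Fitted log2 fold change of flooding over control (points) with its 95% interval (bars) for the 207 steady genes in order of the estimate, with dotted lines at a fall of 20% and a rise of 25% and dashed lines at 1.5-fold. Estimates run from -0.18 to 0.14, and the bars of all 207 genes stay inside the dashed lines, those of 71 inside the dotted ones.

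Equal group means alone did not make a gene steady. A fitted change no larger than the largest of a steady gene (log2 0.18 either way) was found in 1972 genes with at least 50 CPM, of which the 207 are 10.5%. The other 1765 had a median ratio of highest to lowest library of 1.445. That their libraries differed by more than their group means follows from the choice. These genes were taken for a small change and lie outside the ratio limit of the rule.

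To read flooding values that the choice had not used, the rule was applied to the 3 control libraries alone. The TMM factors of all 6 libraries were kept. The rule then took 1154 genes, 205 of the 207 among them. This overlap follows from the rule, since a steady gene can drop out only if its control mean is under 50 CPM. In 978 of the 1154 (84.7%, exact 95% interval 82.5% to 86.8%, counting error over genes, which are not independent replicates) the flooded mean lay within 1.2-fold of the control mean. Among the 2440 other genes with a control mean of at least 50 CPM this held for 1600 (65.6%). The control mean is part of this measure and comes from the libraries used in the choice. A small control spread by itself brings the group means closer, so the gap between the shares follows in part from the choice. In 94 of the 1154 the flooded mean was more than 1.2-fold higher and in 82 more than 1.2-fold lower, and in 23 (1.99%) the difference passed 1.5-fold, against 251 of the 2440 others (10.3%). The widest difference among the 1154 was 3.365-fold. EdgeR's quasi-likelihood test called 0 of the 1154 (smallest adjusted p = 0.0605), where it called 0.0296% of all tested genes. At an unadjusted p under 0.05 it passed 65 (5.63%), where 8.02% of all tested genes passed. Limma-voom passed 68 (5.89%) and DESeq2 97 (8.41%) at that threshold, where they passed 7.16% and 8.6% of all genes with a p. At an adjusted p under 0.05 limma-voom called 0, where it called 0.0236% of all tested genes. DESeq2 called 16, where it called 1.44% of the genes it gave an adjusted p (238 of 16580). The choice on the controls also narrows the spread that these tests use. All 3 flooded libraries lay within 1.2-fold of the control mean in 483 of the 1154 genes (41.9%), against 451 of the 2440 others (18.5%).

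The share of 84.7% depended on which libraries were used. It was 67.1%, 70.9% and 84.5% without control replicates 1, 2 and 3, where the choice rests on 2 libraries each time. Without flooding replicates 1, 2 and 3 it was 83.9%, 81.5% and 77.5%. It was 79.4% with library totals in place of TMM factors.

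The rule on the 3 flooded libraries alone took 972 genes, 202 of the 207 among them, an overlap that again follows from the rule. In 809 of these (83.2%) the control mean lay within 1.2-fold of the flooded mean, against 1720 of the 2610 others (65.9%). Here the flooded mean is the part of the measure that the choice had used. The widest difference among the 972 was 6.03-fold, and 8 passed 2-fold, against 123 of the 2610. EdgeR called 1 of the 972 and 1 of the 2610, where it called 0.0296% of all tested genes. The flooded mean was more than 1.2-fold lower than the control mean in 57 of the 972 and more than 1.2-fold higher in 106.

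**Figure D5:**
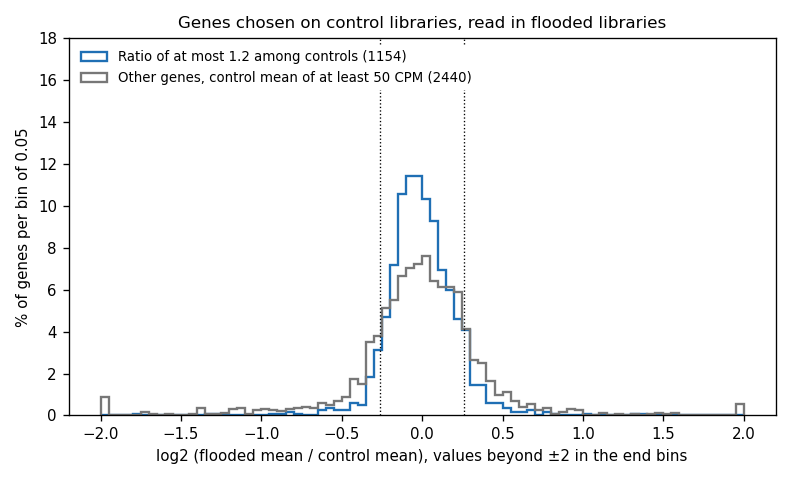
Distribution over genes of the log2 ratio of the flooded mean to the control mean (% of genes per bin of 0.05), for 1154 genes with a ratio of at most 1.2 among the 3 control libraries and for 2440 other genes, all with a control mean of at least 50 CPM, with dotted lines at 1.2-fold. Of the chosen genes 84.7% lie between the dotted lines, of the others 65.6%.

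Both choices shared 429 genes, 44.1% of the flood-chosen and 37.2% of the control-chosen ones. Among these were 200 of the 207, which follows from the rule as well. In the other 229 the libraries were tight within each group, but the groups lay apart enough, or at the edges of both ranges, to pass a ratio of 1.2 over all 6. Their group means differed by 1.12-fold in the median and by at most 2.01-fold, with the flooded mean above the control mean in 130 and below it in 99. In 37 of the 229 the means differed by more than 1.2-fold, with flooding higher in 23 and lower in 14. The 3178 genes with at least 50 CPM outside the 429 had a median of 1.13-fold, and 1005 of them passed 1.2-fold. The means lay within 1.2-fold in 83.8% of the 229 and in 68.4% of the 3178. The median difference was thus about the same in both sets, which were chosen by their spread. All flooded libraries lay above all control libraries in 74 of the 229 and below them in 37. This held in 194 and 140 of the 3178, and in 6.76% and 6.14% of all tested genes. The choice favours such separate groups, since the 229 are tight within groups and pass 1.2 over all 6 libraries. EdgeR called 0 of the 229 and 4 of the 3178, where it called 0.0296% of all tested genes.

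Leaving each library out of the choice in turn, with the TMM factors of all 6 libraries kept, gave a value in a library that the rule had not used. The rule on the other 5 libraries took 338, 356 and 338 genes when flooding replicates 1, 2 and 3 were left out, and 276, 340 and 319 genes when control replicates 1, 2 and 3 were left out. The library left out lay within 1.2-fold of the mean of the other 5 in 81.1%, 80.6% and 84.3% of these genes for flooding replicates 1 to 3, against 94.2%, 84.1% and 87.8% for control replicates 1 to 3. The 3 flooded libraries thus gave 80.6% to 84.3%, with control replicate 2 at 84.1% inside that range and the other control libraries above it. Among the genes not chosen, with at least 50 CPM, the share was 52.4% to 63.4% for flooded libraries and 53.7% to 64.6% for control libraries. A difference of more than 1.5-fold in the library left out was seen in 6, 3 and 3 of the chosen genes for flooding replicates 1 to 3, and in 0, 2 and 1 for control replicates 1 to 3.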

How the data were processed

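Per the files' values, the authors deposited raw read counts per gene model, 1 library per file. HTSeq 0.11.1, Trimmomatic, FastQC 0.11.7 and edgeR 3.8 are listed, per the submitters' processing notes, with no step for each. The aligner, the genome and the strand setting are not given in the sources used, so counts of near-identical copies, overlapping genes and antisense genes are uncertain. The 5 closing rows that name no gene (14.1% to 19.0% of listed reads) were left out.

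The filterByExpr function of edgeR 4.0.16 (R 4.3.3) selected genes (minimum count 10, minimum total 15), library sizes were recomputed and scaled by TMM, and CPM was taken without a prior count. Groups were compared by the quasi-likelihood F test with Benjamini-Hochberg adjustment over 16917 genes. The 95% intervals used the fit's working weights and moderated dispersion; the scripts were tested on simulated data. Counting CV is that of Poisson counts. Alternatives were DESeq2 1.42.0, limma 3.58.1 (voom), other scalings, filters and limits, thinning, a replicate block and left-out libraries. Genes named are those with the lowest ratio, highest mean, largest change either way, or next to a limit. The members and lists were chosen with earlier results of these data known. Product lists were not used, as IDs have no names here.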

Additional observations from a re-analysis of the deposited data

Results flagged for a closer look

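Reads that fell outside gene models, which enter no gene's count, were 5.626% of all listed reads in flooding replicate 2, against 1.07% to 1.375% in the control libraries. The same library was the lowest in 48 of the 207 steady genes.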

How the results depend on the processing

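The 207 steady genes became 212 with DESeq2's size factors, 210 with upper quartile factors, 198 with no filter and 205 after thinning to the smallest library, but 123 with library totals, under which the tested genes had a median log2 change of -0.08. A ratio limit lower by 0.05 gave 82 genes, one higher by 0.05 gave 412, and mean limits of 20 and 100 CPM gave 525 and 52. The rule on fewer libraries took more genes: 972 on flooded libraries, 1154 on controls, 268 to 363 with 1 library left out of filter, scaling and rule alike, and 690 without control replicate 2 and flooding replicate 2 (chosen after seeing the data). The interval lay within 1.5-fold for 202 to 207 of the 207 in every alternative run, and the median size of change stayed between 0.05 and 0.09. Of 325 values for 25 named genes, 313 moved by less than 1 SD of their replicates; the other 12 came with library totals. The control-chosen share of 84.7% was 79.4% with library totals and 67.1% to 84.5% with 1 library left out. Over all genes, 5 calls (0 higher) became 8 with upper quartile factors (1 higher), 10 with library totals (1 higher) or no filter (1 higher), 238 with DESeq2 (110 higher), 0 at an adjusted p under 0.01, and 0 to 122 with 1 library left out, the most without control replicate 2. With the replicate number as a block 0 genes were called and all 207 intervals stayed within 1.5-fold; deviations from the group means correlated with r = 0.07, 0.20 and 0.13 between samples of equal number, and since 1 of these is under 0.1 no pairing was assumed, although every sample was closest to the one of its number. What causes the differing counts was not tested.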

Other observations

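Steady genes were spread over the ID blocks of the listing, which number from 1 to 8 in the IDs. Of the genes with a mean of at least 50 CPM in a block, the steady ones made up 4.45% (block 6, 23 of 517) to 6.91% (block 7, 27 of 391). Of the 3 genes at this level with IDs outside these blocks, 0 were steady. No steady gene was listed directly next to another, and how often neighbours would occur by chance was not examined. With a limit of 20 CPM in place of 50 CPM, 525 genes met the ratio limit, where counting alone adds more spread.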
